A study of Homo sapiens with 6 samples.

Results

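The genes described here are 32 genes of mitosis, listed by symbol and role (cyclins, kinases, checkpoint, spindle, kinesin and cytokinesis genes) and not by a threshold on their values. Each symbol matched exactly 1 of the 63140 genes of the deposited count table, and all 32 passed the filter on low counts. The cells were HEK293, an established human line of embryonic kidney origin grown in medium with serum. Confluent cultures were given either GSK-A1, at 100 nM for 24 h, or the solvent DMSO. GSK-A1 inhibits PI4KA, the lipid kinase that supplies phosphatidylinositol 4-phosphate to the plasma membrane, and the series asked how its inactivation changed the transcriptome. There were 3 libraries per treatment, numbered as biological replicates in their titles, so 6 in all. No genotype, transgene or other agent distinguished the groups, and both treatments were read at 1 dose and 1 time in a line that had reached confluence.

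Mitosis is driven by the kinase CDK1 bound to cyclins A and B, which phosphorylates proteins of the nuclear envelope, chromosomes and spindle. The spindle checkpoint, built on the kinases TTK and BUB1 and the pseudokinase BUB1B, holds the anaphase-promoting complex in check through its activator CDC20 until every kinetochore is attached. Once CDC20 is released, cyclin B is degraded, the chromosomes part, and kinesins, anillin (ANLN) and the exchange factor ECT2 carry out cytokinesis. Transcripts of most of these genes build up in G2 and M phase under the MuvB complex, B-MYB and FOXM1, many of them through a promoter element called the CHR.

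Library totals ranged from 33040178 to 47777233 counts. Within the GSK-A1 group replicate 2 stood apart, with a chi-square statistic per gene of 10.98 and 15.5 against replicates 1 and 3, where replicates 1 and 3 gave 2.88 against each other and the DMSO pairs gave 1.84 to 3.14. Its mitochondrial share of counts was 4.04%, against 5.12% to 5.68% in the other 5 libraries. Of 7 genes fixed as markers of HEK293 cells, VIM, KRT8, KRT18, NEFL and PAX2 passed the count filter and NEFM and INA did not, being near 0. Their summed level was 2021 to 2094 CPM (counts scaled by library size) with DMSO and 2168 to 2360 CPM with GSK-A1, most of it VIM. Of the 5 tested, VIM (0.166, edgeR adjusted p = 0.00423) and KRT8 (0.111, 0.0373) were called higher and PAX2 (-0.432, 0.0177) lower on the log2 scale; their part in the results was not tested. The 9 markers of blood, liver, endothelial, muscle, glial and stromal cells summed to 7.01 to 7.64 CPM with DMSO and to 5.16 to 7.23 CPM with GSK-A1, nearly all of it COL1A1.

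After 24 h of GSK-A1 most mitosis transcripts were near their DMSO level, and 7 of the 32 changed, all by less than 20%. ANLN, BUB1, CDK1, TTK and BUB1B rose, by 8.34% to 19.4%, and CDC20 and KIF20A fell, by 10.5% and 10.2%. A gene was called changed when its adjusted p was under 0.05 in edgeR's quasi-likelihood test over all 16754 genes that passed the count filter. By that rule 21.9% of the mitosis genes were called, against 22.9% of all genes tested, so the share was near the background. The 5 called higher made up 15.6% of the list, against 12.0% of all genes, and the 2 called lower made up 6.25%, against 10.9%. The median log2 fold change of the list was 0.0426, beside -0.0109 over all genes tested, a background not matched for base composition. In bulk RNA, fewer or more cells in mitosis and less or more RNA per mitotic cell cannot be told apart.

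The number of calls depended on the DMSO libraries. Without DMSO replicate 1 only ANLN and BUB1 were called, without DMSO replicate 2 the calls of TTK and BUB1B were lost, and without DMSO replicate 3 those of CDC20, TTK, CDK1 and BUB1B were lost. The share of all genes called was also lower in these fits, at 12.7% to 13.2%. The sizes of the lost calls moved little, being 0.156 to 0.161 for TTK, 0.108 to 0.125 for BUB1B, 0.183 and 0.176 for CDK1, -0.135 and -0.166 for CDC20 and -0.134 for KIF20A on the log2 scale. Without any 1 GSK-A1 library all 7 calls held, and without GSK-A1 replicate 2 there were 11 calls, 7 higher and 4 lower, where 28.1% of all genes were called. Under upper-quartile factors 33.3% of the calls over all genes were higher, against 52.3% with the trimmed mean of M values, and 16 mitosis genes had a positive log2 fold change instead of 23.

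**Figure D1:**
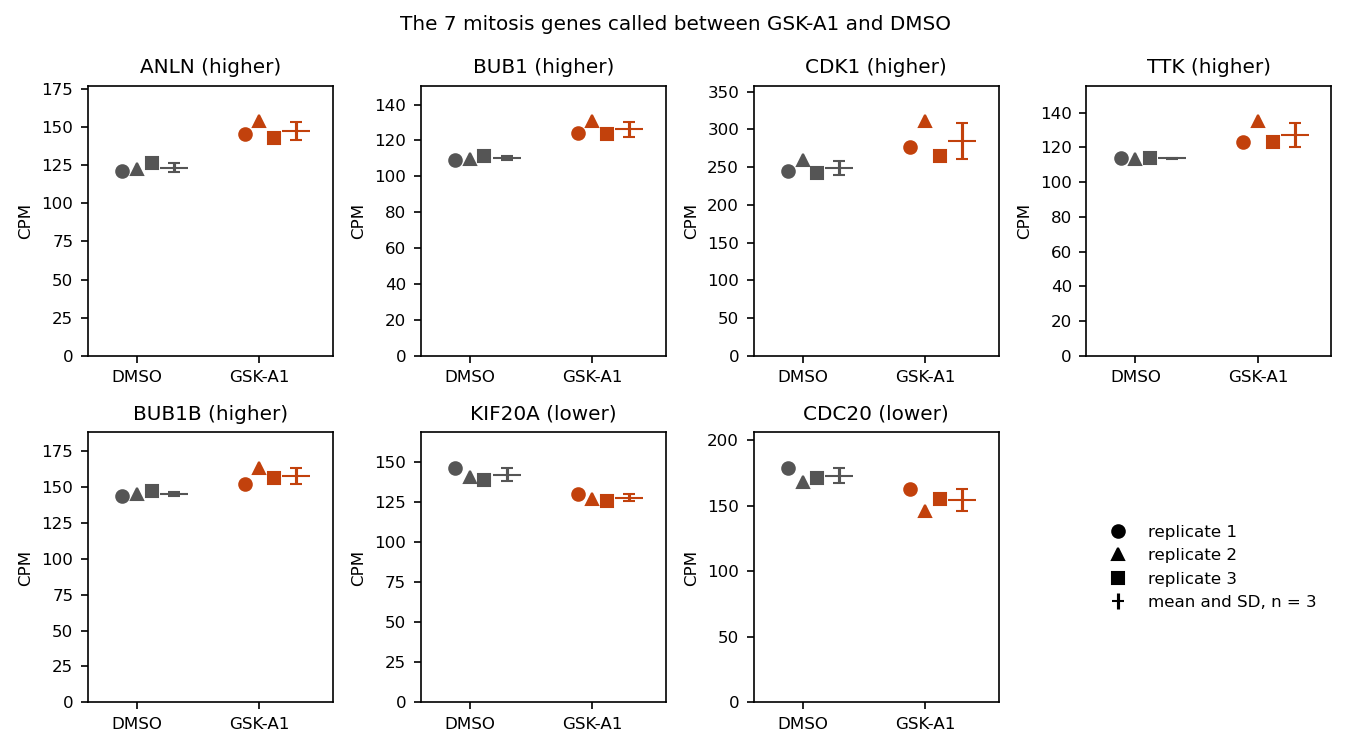
Normalised expression in CPM (vertical axis, from 0) of the 7 mitosis genes called between treatments, with each DMSO library in grey, each GSK-A1 library in orange, and the mean and SD of 3 libraries beside them. The GSK-A1 libraries lie above all DMSO libraries in ANLN, BUB1, CDK1, TTK and BUB1B and below them in KIF20A and CDC20, and the distance is small against the level of each gene.

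Among the cyclins and their kinase, CDK1 was the member called. CDK1 (ENSG00000170312, chromosome 10, 60778331 to 60794852, plus strand, GENCODE 29 on GRCh38) is the catalytic subunit that both mitotic cyclins activate. It read 245, 259 and 242 CPM across DMSO replicates 1 to 3, against 277, 311 and 265 CPM across the GSK-A1 replicates in order. The groups did not overlap, and GSK-A1 replicate 2 was the highest library. Group means were 248.5 ± 9 and 284 ± 24 CPM (SD, n = 3). The log2 difference was 0.194 with a standard error of 0.0516, at an adjusted p of 0.0162 in edgeR. Without replicate 2 the log2 fold change was 0.130 (edgeR adjusted p = 0.000571). With the trend of each library on GC content removed, it was 0.108 (edgeR adjusted p = 0.0183).

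The cyclins that CDK1 binds gave overlapping groups. CCNB1, cyclin B1, had the highest level of them per kilobase of transcript, with 242 to 258 CPM in the DMSO libraries and 237 to 243 CPM in the GSK-A1 libraries, a log2 fold change of -0.0466 with a 95% interval from -0.123 to 0.0298. CCNA2, cyclin A2, lay at 103 to 108 CPM with DMSO and at 105 to 117 CPM with GSK-A1 (log2 fold change 0.0532, 95% interval -0.0407 to 0.147). CCNB2, the cyclin B of the Golgi and cytoplasm, lay at 78.4 to 82.9 and 79.5 to 86.5 CPM (95% interval -0.0666 to 0.118). None of the 3 cyclins was called; the highest upper bound of their intervals was 0.147.

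Of the 5 mitotic kinases and checkpoint members 3 were called higher, or 60%, against 12.0% of all genes tested. They were BUB1, TTK and BUB1B, and the calls of TTK and BUB1B were lost without any 1 DMSO library. Of 19 further genes of the checkpoint and the anaphase-promoting complex, 10.5% were called in each direction. BUB1 (ENSG00000169679, chromosome 2, 110637698 to 110678114, minus strand) is the kinetochore kinase that phosphorylates histone H2A and recruits the other checkpoint proteins. It read 109, 110 and 111 CPM across DMSO replicates 1 to 3, against 124, 131 and 123.5 CPM across the GSK-A1 replicates in order. Every GSK-A1 library was above every DMSO library by more than the whole DMSO range. The log2 difference was 0.195 with a standard error of 0.0380, at an adjusted p of 0.00174 in edgeR, and BUB1 was called under all 15 alternative settings, with values from 0.154 to 0.215.

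TTK (ENSG00000112742, chromosome 6, 80003887 to 80042527, plus strand), also called MPS1, is the kinase that starts checkpoint signalling at unattached kinetochores. It had the tightest DMSO group of the called genes, at 114, 114 and 114 CPM, against 123, 135 and 123 CPM across GSK-A1 replicates 1 to 3. The log2 difference was 0.159 with a standard error of 0.0418, at an adjusted p of 0.0124 in edgeR, and 0.117 without GSK-A1 replicate 2 (edgeR adjusted p = 0.00252).

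BUB1B (ENSG00000156970, chromosome 15, 40161023 to 40221136, plus strand) encodes BUBR1, which binds CDC20 within the mitotic checkpoint complex. It went from 144, 145 and 147 CPM to 152, 163 and 156 CPM, which in log2 is 0.116 ± 0.0376 (SE; edgeR adjusted p = 0.0357). This was the weakest of the 7 calls, and it was not called under upper-quartile factors (0.0745, edgeR adjusted p = 0.147) or with library totals only (0.108, 0.0575). The readthrough gene BUB1B-PAK6 shares 10.2% of its exonic length and had at most 0.0214 CPM in any library.

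The other kinases of this group were not called. PLK1, the polo kinase of mitotic entry and centrosome maturation, lay at 132 to 141 CPM in DMSO libraries and at 126 to 129 CPM in GSK-A1 libraries, with every GSK-A1 library lower. Its log2 fold change of -0.0930 had an unadjusted p of 0.0267 and an edgeR adjusted p of 0.0905, and PLK1 was called lower under upper-quartile factors (-0.134, edgeR adjusted p = 0.0149), with a filter at 5 CPM (-0.110, 0.0352) and without GSK-A1 replicate 2 (-0.0975, 0.0157). AURKA, the Aurora kinase of centrosomes and spindle poles, lay at 78.2 to 80.4 and 80.75 to 82.65 CPM, groups that did not overlap and differed by 0.0464 on the log2 scale (edgeR adjusted p = 0.416).

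CDC20, the target that the checkpoint holds back, went the other way from BUB1 and BUB1B. CDC20 (ENSG00000117399, chromosome 1, 43358955 to 43363203, plus strand) read 179, 168 and 171 CPM across DMSO replicates 1 to 3, against 162, 146 and 155 CPM across the GSK-A1 replicates in order. All GSK-A1 libraries were lower, replicate 2 the most. Group means were 173 ± 6 and 154 ± 8 CPM (SD, n = 3). The log2 difference was -0.161 with a standard error of 0.0429, at an adjusted p of 0.0131 in edgeR. Its value was -0.110 with the GC trend removed (adjusted p = 0.0145, edgeR). Of the 50-base words in its longest transcript 9.03% recur in the pseudogene CDC20P1, so its count may include or lose reads of that copy.

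The 2 members that work with CDC20 in protein degradation were not called. UBE2C, the ubiquitin-conjugating enzyme of the anaphase-promoting complex, lay at 109 to 118.5 CPM with DMSO and at 105 to 115 CPM with GSK-A1. CDCA3, an adaptor linked to degradation of WEE1 at mitotic entry, lay at 57.5 to 60.6 and 59.9 to 66.2 CPM (a log2 difference of 0.0978, edgeR adjusted p = 0.141), with GSK-A1 replicate 2 the lowest of its group. Without that library CDCA3 was called higher (0.143, edgeR adjusted p = 0.00183), and likewise with the GC trend removed (0.112, 0.0375).

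Of the kinesins, motor proteins that move along or take apart microtubules, KIF20A was called. KIF20A (ENSG00000112984, chromosome 5, 138178719 to 138187715, plus strand), or MKLP2, carries the chromosomal passenger complex to the central spindle in anaphase. It read 146.5, 141 and 139 CPM across DMSO replicates 1 to 3, against 130, 127 and 126 CPM across the GSK-A1 replicates in order. The groups lay apart, and here GSK-A1 replicate 2 was in the middle of its group. The log2 difference was -0.155 with a standard error of 0.0372, at an adjusted p of 0.00691 in edgeR, it was -0.157 with the GC trend removed, and the call was lost in 1 of the 15 alternatives, that without DMSO replicate 1 (-0.134, edgeR adjusted p = 0.0550).

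The other 3 kinesins differed between the treatments by less than their standard errors. KIF2C, the microtubule depolymerase MCAK, lay at 149 to 152 CPM with DMSO and at 151 CPM in each GSK-A1 library, with a 95% interval of the log2 fold change from -0.0668 to 0.0797. KIF11, the motor Eg5 that separates the spindle poles, lay at 159 to 161 CPM with DMSO, against 151, 174 and 154.5 CPM across GSK-A1 replicates 1 to 3, on either side of the DMSO libraries. KIF23, or MKLP1, the motor of the centralspindlin complex, lay at 126 to 127 CPM with DMSO and at 121 to 132 CPM with GSK-A1.

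ANLN had the largest change of the 32 genes in the fit of all 6 libraries. ANLN (ENSG00000011426, chromosome 7, 36389806 to 36453791, plus strand) encodes anillin, the scaffold that links actin, myosin, septins and RhoA in the contractile ring. It read 121.4, 122.2 and 126.5 CPM across DMSO replicates 1 to 3, against 145, 154 and 143 CPM across the GSK-A1 replicates in order. All GSK-A1 libraries were higher, and the distance between the groups was larger than the range within either. Group means were 123 ± 3 and 147 ± 6 CPM (SD, n = 3), a rise of 19.4%. The log2 difference was 0.256 with a standard error of 0.0393, at an adjusted p of 0.000267 in edgeR. It was called in all 15 alternatives, with values from 0.202 to 0.281. ECT2, the exchange factor that activates RhoA at the cell equator, gave overlapping groups: 81.2 to 85.5 CPM with DMSO, and 83.4, 102 and 85.5 CPM in GSK-A1 replicates 1 to 3. ECT2 differed by 0.110 on the log2 scale with replicate 2 and by 0.0178 without it, and was called in neither fit.

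**Figure D2:**
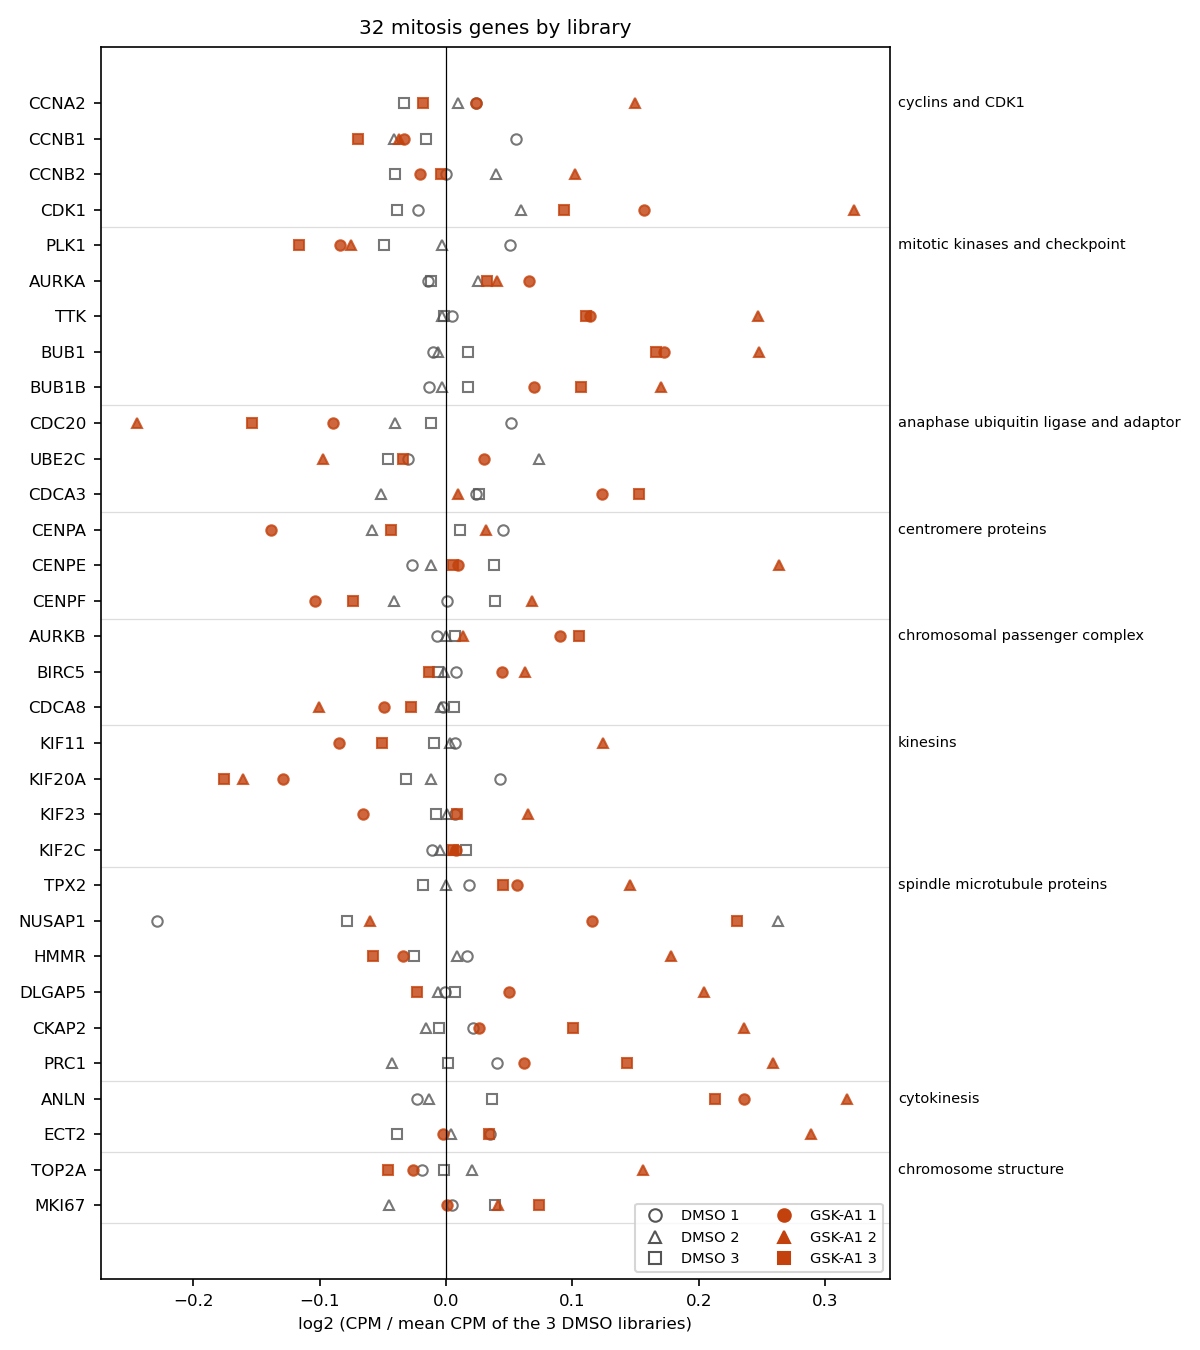
Log2 ratio of CPM to the mean of the 3 DMSO libraries (horizontal axis) for each of the 32 genes, by role, with open grey symbols for DMSO and filled orange symbols for GSK-A1 libraries. The triangle of GSK-A1 replicate 2 is the highest of its group in 21 genes, among them ECT2, CENPE and CDK1, and the lowest in 6, among them CDC20.

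The centromere proteins and the chromosomal passenger complex held no called member. CENPA, the histone H3 variant that marks centromeres, lay at 23.1 to 24.8 CPM with DMSO and at 21.8 to 24.5 CPM with GSK-A1. CENPE, the kinesin that brings chromosomes to the spindle equator, had 82.5 to 86.3 CPM with DMSO and 84.6, 101 and 84.4 CPM in GSK-A1 replicates 1 to 3, so that replicate 2 alone lay above the DMSO range (log2 fold change 0.0966, and 0.0132 without replicate 2). CENPF, a large kinetochore protein, had 317 to 335 CPM with DMSO and 303, 341.5 and 309 CPM in GSK-A1 replicates 1 to 3. Without GSK-A1 replicate 2 CENPF was called lower (-0.0843, edgeR adjusted p = 0.0204).

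The passenger complex corrects wrong microtubule attachments and later moves to the central spindle. AURKB, its kinase, lay at 172.8 to 174.5 CPM in the DMSO libraries against 185, 175 and 187 CPM across GSK-A1 replicates 1 to 3 (log2 fold change 0.0706, edgeR adjusted p = 0.177). Without GSK-A1 replicate 2, the lowest of its group, AURKB was called higher (0.102, edgeR adjusted p = 0.00513), and so it was with the GC trend removed (0.109, 0.00661). CDCA8, or borealin, lay at 83.7 to 84.3 CPM with DMSO and at 78.3 to 82.4 CPM with GSK-A1, and BIRC5, or survivin, at 197.9 to 199.9 and 197 to 208 CPM, and neither was called in any of the 15 alternatives.

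None of the 6 spindle microtubule proteins was called. TPX2, which activates AURKA and nucleates microtubules near chromosomes, lay at 196 to 201 CPM with DMSO and at 205 to 220 CPM with GSK-A1, groups that did not overlap (log2 fold change 0.0831, edgeR adjusted p = 0.117). CKAP2, which stabilises spindle microtubules, lay at 170 to 175 and 175 to 203 CPM (0.122, edgeR adjusted p = 0.0655). It was called higher without GSK-A1 replicate 1 (0.177, edgeR adjusted p = 0.0264), without a count filter (0.131, 0.0209) and with a replicate block, and was not called once GSK-A1 replicate 2 was left out (0.0665) or the GC trend was removed (0.0356). DLGAP5, or HURP, and HMMR each had GSK-A1 replicate 2 above all other libraries, at 99.1 against 84.6 to 89.0 CPM and at 61.3 against 52.0 to 54.8 CPM. Without it their log2 fold changes went from 0.0794 to 0.0198 and from 0.0303 to -0.0423, with no call.

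NUSAP1 and PRC1 had few counts. NUSAP1, a microtubule bundler, was listed at 0.626 to 0.879 CPM and PRC1, the crosslinker of the central spindle, at 9.98 to 12.3 CPM, also the lowest 2 levels per kilobase. In GENCODE 29 the gene AC087721.2 covers 62.2% of the exonic length of NUSAP1 on the same strand, and AC068831.7 covers 57.6% of that of PRC1. The gene identifier of AC068831.7 had 21.5 to 29.3 CPM, more than PRC1 itself, and that of AC087721.2 had no count in any library. The effect of this overlap on the counts was not tested, and both genes' levels are therefore uncertain. For NUSAP1 the 95% interval of the log2 fold change ran from -0.355 to 0.555.

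The 2 genes of chromosome structure were not called. TOP2A, the topoisomerase that untangles sister chromatids, read 766, 787 and 775 CPM across DMSO replicates 1 to 3, against 762, 864 and 752 CPM across the GSK-A1 replicates in order, with replicate 2 above and the others below the DMSO libraries. MKI67, the Ki-67 protein that coats mitotic chromosomes and serves as a proliferation marker, stood at 534, 516 and 547 CPM and at 532, 547 and 560 CPM. Its 95% interval ran from -0.0340 to 0.112 on the log2 scale. Per kilobase of longest transcript, the DMSO levels ran from 138 CPM per kb in AURKB, 135 in TOP2A, 128 in CDK1, 123 in UBE2C and 115 in CCNB1 down to 16.5 in CENPA and 9.76 in CENPE, leaving aside PRC1 and NUSAP1.

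In all, 25 members were not called. Their log2 fold changes ran from -0.0930 to 0.150, and without NUSAP1 their 95% intervals lay between -0.174 and 0.302. Changes beyond those bounds lay outside the intervals of these 24 genes, and a missed threshold does not show that the groups were alike. The groups did not overlap in 14 of the 32 genes: 10 with GSK-A1 higher, or 31.2%, against 20.2% of all genes tested, and 4 with GSK-A1 lower, or 12.5%, against 20.4%.

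**Figure D3:**
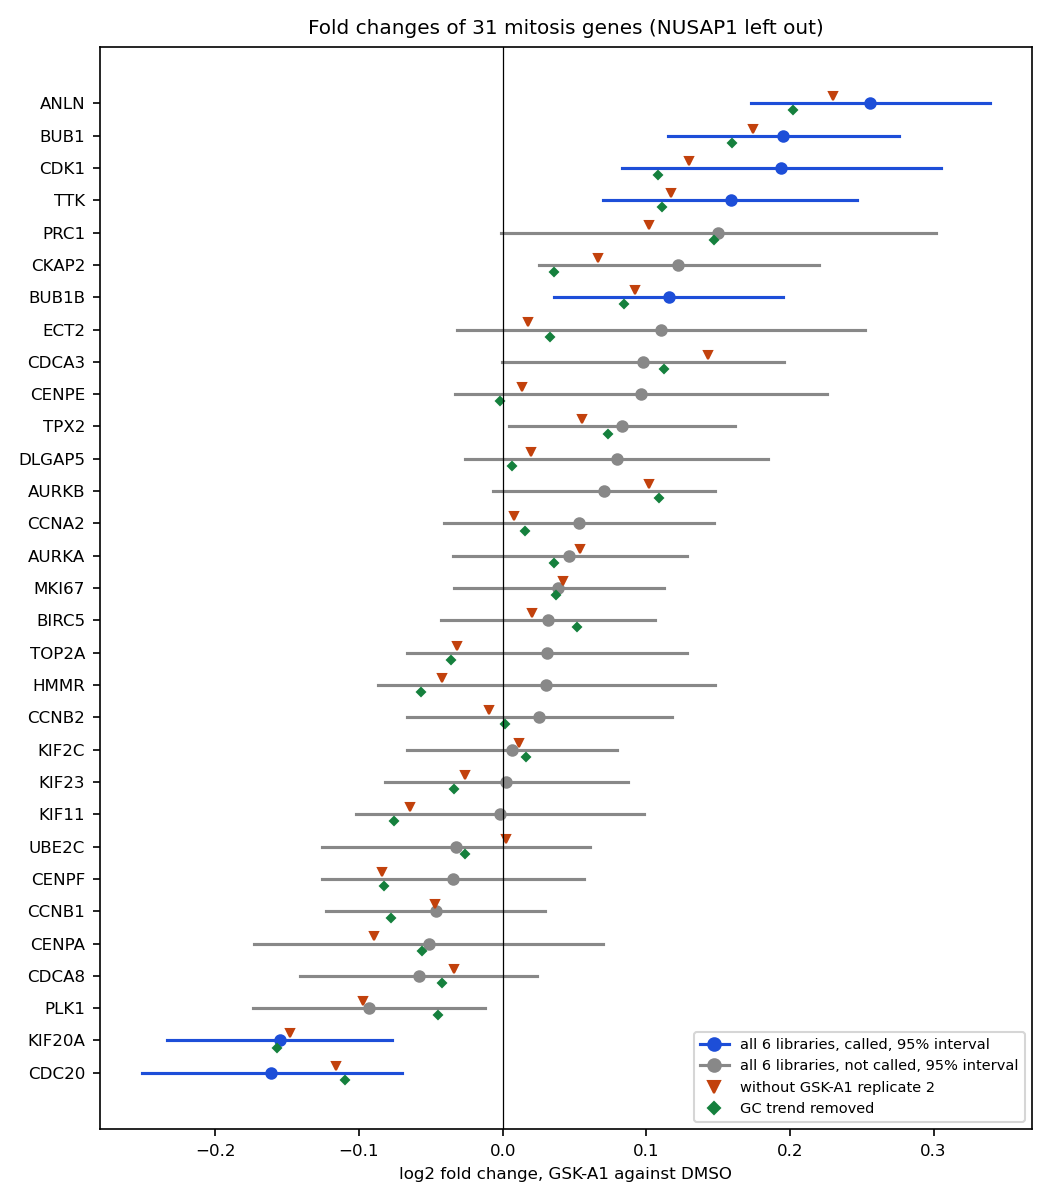
Log2 fold change of GSK-A1 against DMSO (horizontal axis) with its 95% interval for 31 mitosis genes (NUSAP1 left out), called genes in blue and others in grey, beside the values without GSK-A1 replicate 2 (orange) and with the GC trend removed (green). ANLN, at 0.256, and CDC20, at -0.161, stand at the ends, and for ECT2, CENPE and DLGAP5 both alternative values lie near 0.

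The position of GSK-A1 replicate 2 varied with the base composition of the genes. It was the highest of its group in all 11 members with a GC content under 42%, in 7 of the 10 from 42% to under 48%, and in 3 of the 11 at 48% and over. Over all genes with a known GC content the same shares were 73.1%, 52.6% and 20.9%. The median difference between replicate 2 and the mean of replicates 1 and 3 was 0.192, 0.0885 and -0.00869 on the log2 scale in the 3 classes of members, and 0.115, 0.0446 and -0.0711 over all genes. Median log2 fold changes, GSK-A1 against DMSO, were 0.0966, 0.0498 and 0.00642 in these classes of members, and 0.0621, 0.015 and -0.0544 over all genes. Across the 32 members the difference and the GC content had a Pearson r of -0.732, and the log2 fold change and the GC content one of -0.518; these are descriptions over genes that share libraries. The 5 members called higher have a GC content of 37.0% to 43.2%, and the 2 called lower one of 48.4% and 57.9%. With the GC trend removed all 7 were called, in a fit that called 25.6% of all genes, against 22.9% in the main fit. Log2 fold changes there went from 0.256 to 0.202 in ANLN, 0.195 to 0.160 in BUB1 and 0.194 to 0.108 in CDK1. They went from 0.159 to 0.111 in TTK, 0.116 to 0.0842 in BUB1B and -0.161 to -0.110 in CDC20, with KIF20A at -0.155 and -0.157. Without GSK-A1 replicate 2 all 7 were called as well, where 28.1% of all genes were called. The part of GC content in the 7 calls was not tested.

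**Figure D4:**
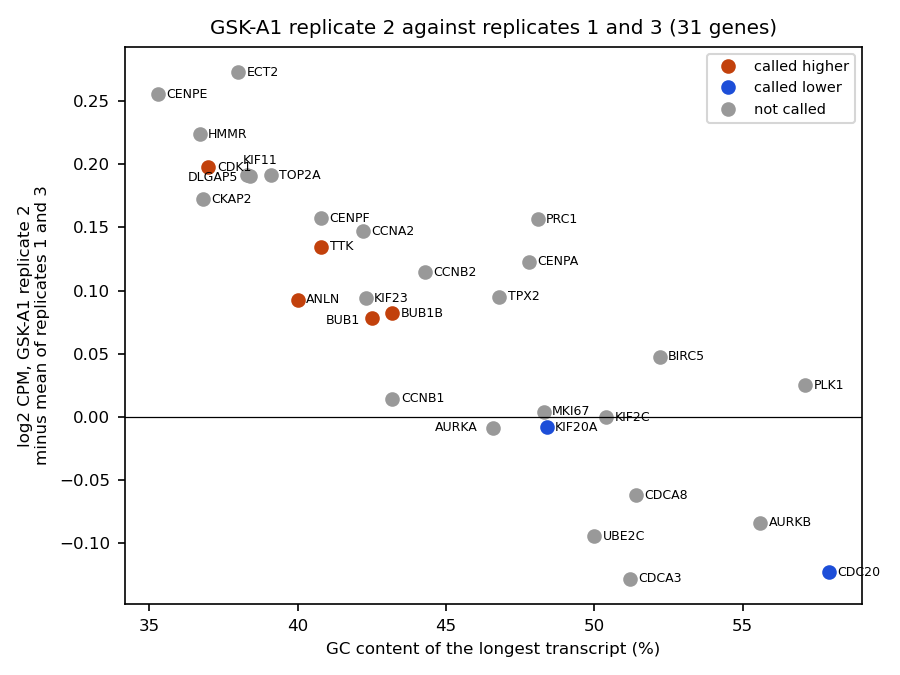
Difference in log2 CPM between GSK-A1 replicate 2 and the mean of GSK-A1 replicates 1 and 3 (vertical axis) against GC content of the longest transcript (horizontal axis, percent) for 31 mitosis genes (NUSAP1 left out), orange where called higher and blue where called lower. Genes of low GC content such as ECT2, CENPE and HMMR lie well above 0, and those of high GC content such as CDC20 and AURKB lie below it.

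Spread within the groups differed too. The median coefficient of variation of the 32 genes was 2.13% over the DMSO libraries and 4.92% over the GSK-A1 libraries, beside 2.11% and 3.83% over all genes tested at 50 CPM or more. The median log2 ratio of the 32 genes to their DMSO mean was 0.0173, 0.0857 and 0.00508 in GSK-A1 replicates 1 to 3, and between -0.00580 and 0.00508 in the DMSO libraries. The list's median fold change was 0.0155 without replicate 2 and 0.0158 with the GC trend removed. Summed over the list, the genes took 5103 to 5135 CPM in the DMSO libraries and 5152, 5484 and 5147 CPM in GSK-A1 replicates 1 to 3.

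Since a ratio of 2 genes in the same library does not depend on how libraries are scaled, partner genes were also compared within libraries, per kilobase, for pairs picked after their values were seen. The ratio of BUB1B to CDC20, which bind each other in the checkpoint complex, was 0.383, 0.411 and 0.409 in DMSO replicates 1 to 3 and 0.447, 0.5345 and 0.480 in GSK-A1 replicates 1 to 3. The ratio of CDK1 to CCNB1 was 1.06, 1.19 and 1.10 and then 1.27, 1.43 and 1.25. The ratio of AURKB to CDCA8, both of the passenger complex, was 4.06 to 4.085 with DMSO and 4.41 to 4.49 with GSK-A1, replicate 2 included. In these 3 pairs every GSK-A1 library was above every DMSO library, whereas the ratio of CCNB1 to CCNB2 gave overlapping groups, at 3.36 to 3.70 and 3.23 to 3.53. For BUB1B to CDC20 and for AURKB to CDCA8 this separation followed from the choice of pair. BUB1B and AURKB were each higher, and CDC20 and CDCA8 each lower, in every GSK-A1 library than in every DMSO library. The choice also favoured CDK1 to CCNB1. CDK1 was higher in every GSK-A1 library, and CCNB1 had a log2 fold change of -0.0466. The ratios were not corrected for GC content. It was 43.2% in BUB1B and 57.9% in CDC20, 37.0% in CDK1 and 43.2% in CCNB1, and 55.6% in AURKB and 51.4% in CDCA8.

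The promoters of called members are shown because genes of both directions hold letters of the CHR or of CCAAT, the usual elements of mitotic promoters. Promoter windows of 250 bases before to 50 bases after the start (RefSeq, GRCh38.p14) were at hand for 27 of the 32 genes, AURKA, TTK, TPX2, UBE2C and BIRC5 not among them. The CHR, searched as TTTGAA or TTCGAA on either strand, occurred in 20 of the 27, or 74.1%, against 16.4% of all 34796 distinct windows. CCAAT, bound by NF-Y and searched on either strand, occurred in 22, or 81.5%, against 34.6%, and 18 windows held both. Below, 170 bases before to 10 bases after the start are printed 5′ to 3′ for the 6 called genes with a window, with CHR and CCAAT letters of either strand in capitals (ATTGG and TTCAAA are the reverse strand of CCAAT and TTTGAA).
ANLN (chr7:36389692-36389871, plus strand): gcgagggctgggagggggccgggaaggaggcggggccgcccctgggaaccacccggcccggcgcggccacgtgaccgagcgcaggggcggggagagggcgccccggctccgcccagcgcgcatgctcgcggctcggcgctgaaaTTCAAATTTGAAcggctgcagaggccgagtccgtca
BUB1 (chr2:110678054-110678233, minus strand): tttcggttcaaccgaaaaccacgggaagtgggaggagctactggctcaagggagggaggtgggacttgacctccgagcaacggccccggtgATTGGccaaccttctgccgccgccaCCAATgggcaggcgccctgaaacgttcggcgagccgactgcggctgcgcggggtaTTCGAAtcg
BUB1B (chr15:40160899-40161078, plus strand): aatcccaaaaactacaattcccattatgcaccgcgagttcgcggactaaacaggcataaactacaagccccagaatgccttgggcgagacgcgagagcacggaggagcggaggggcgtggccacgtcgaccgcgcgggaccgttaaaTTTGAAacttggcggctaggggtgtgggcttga
CDK1 (chr10:60778161-60778340, plus strand): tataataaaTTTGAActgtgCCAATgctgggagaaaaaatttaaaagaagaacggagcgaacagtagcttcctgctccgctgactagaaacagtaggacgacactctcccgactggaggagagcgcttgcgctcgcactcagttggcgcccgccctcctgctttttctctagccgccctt
CDC20 (chr1:43358811-43358990, plus strand): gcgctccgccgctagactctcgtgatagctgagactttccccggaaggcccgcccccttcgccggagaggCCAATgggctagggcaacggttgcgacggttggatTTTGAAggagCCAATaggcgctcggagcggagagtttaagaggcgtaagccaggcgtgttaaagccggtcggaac
KIF20A (chr5:138178942-138179121, plus strand): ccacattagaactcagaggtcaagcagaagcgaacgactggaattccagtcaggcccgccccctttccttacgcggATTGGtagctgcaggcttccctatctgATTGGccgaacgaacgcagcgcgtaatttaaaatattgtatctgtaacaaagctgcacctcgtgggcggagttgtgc

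Among the genes that rose, ANLN held adjacent CHR matches 26 and 20 bases before the start and no CCAAT. BUB1 held a CHR 2 bases after the start, preceded by GCGG at a distance of 4 bases (the CDE-CHR arrangement, in 0.15% of all windows), and 2 CCAAT matches. That arrangement occurred in 4 of the 27 member windows, or 14.8%, and the other 3 of these genes were not called. BUB1B held a CHR 23 bases before the start, and CDK1 held a CHR 161 and a CCAAT 150 bases before it. Of those that fell, CDC20 held a CHR 65 bases before the start, between CCAAT matches at 100 and 55 bases, and another CHR 178 bases before it, outside the printed stretch, and KIF20A held 2 CCAAT matches, with no TTTGAA or TTCGAA in its window. The 20 members with a match to TTTGAA or TTCGAA, the only CHR forms searched, had log2 fold changes from -0.161 to 0.256, median 0.035. The 7 without such a match had -0.155 to 0.122, median 0.053, so the ranges overlapped widely. A match of letters is a description of the window and not a measured site.

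The wider set of mitosis genes was read from a list of 123 further genes drawn up by function, with earlier results of these data known. Of 122 tested, 25.4% were called, against 22.9% of all genes: 24 were called higher, or 19.7%, and 7 lower, or 5.74%, and the median log2 fold change was 0.0450. The count of 24 was between 10 and 13 when any 1 DMSO library was left out, fits in which the share of all genes called higher was 6.77% to 7.23% in place of 12.0%. The count of 7 lower was 2 to 4 without a DMSO library and 4 without GSK-A1 replicate 1. The share of all genes called lower also fell there, from 10.9% to between 5.93% and 6.12% and to 6.54%. It was 12 with a filter at 5 CPM, 14 without GSK-A1 replicate 2, 15 with the GC trend removed and 19 under upper-quartile factors, where the all-gene share called lower was 12.2% to 16.0% in place of 10.9%.

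Of 16 regulators of mitotic entry and exit 7 were called higher, or 43.8%, against 12.0% of all genes, and 1 lower, or 6.25%, against 10.9%. PTTG1, or securin, which keeps separase inactive until anaphase, went from 126 ± 3 to 147 ± 2 CPM (SD, n = 3), which in log2 is 0.217 ± 0.0366 (SE; edgeR adjusted p = 0.000586). MASTL, the Greatwall kinase that shuts off the phosphatase opposing CDK1, rose by 0.246 ± 0.0440 (edgeR adjusted p = 0.000926). FBXO5, or EMI1, an inhibitor of the anaphase-promoting complex, rose by 0.247 ± 0.0499 (edgeR adjusted p = 0.00246). All 3 genes were called in each of the 15 alternatives, with FBXO5 at 0.144 once the GC trend was removed.

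Of 19 tested genes of the checkpoint and the anaphase-promoting complex, 2 were called higher and 2 lower, 10.5% each way and so near the background. MAD2L1, the checkpoint protein that closes on CDC20, went from 137 ± 1 to 156 ± 14 CPM (SD, n = 3; log2 fold change 0.187 ± 0.0517, edgeR adjusted p = 0.0180), with GSK-A1 replicate 2 highest at 172 CPM and a log2 fold change of 0.115 without it. ANAPC5, a scaffold subunit of the complex, fell by 0.128 on the log2 scale (edgeR adjusted p = 0.0178), and SPDL1, the dynein adaptor of kinetochores, by 0.148 (0.0210). Each of these 3 calls was lost in some fits that left out a library, with adjusted p up to 0.0736 for MAD2L1, 0.0895 for ANAPC5 and 0.113 for SPDL1.

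Among 26 kinetochore genes 4 were called higher, or 15.4%, and 2 lower, or 7.69%, against 12.0% and 10.9% of all genes. SKA1, of the complex that couples kinetochores to shrinking microtubules, rose from 31.5, 33.7 and 33.6 CPM to 41.5, 42.2 and 40.3 CPM, which in log2 is 0.328 ± 0.0476 (SE; edgeR adjusted p = 0.000162), larger than the value of any of the 32. NUF2, of the NDC80 complex, rose by 0.286 ± 0.0565 (edgeR adjusted p = 0.00217), and CENPM fell by 0.184 (0.00499), or by 0.114 with the GC trend removed. None of the 8 condensin genes was called, against 22.9% of all genes, with 1 at an unadjusted p under 0.05. Of 20 other spindle and kinesin genes 3 were called higher, or 15%, against 12.0% of all genes, and none lower, against 10.9%. The 3 were KIF20B (0.254 ± 0.0685, edgeR adjusted p = 0.0211), CKAP5 (0.121 ± 0.0354, 0.0215) and ASPM (0.125 ± 0.0409, 0.0363). All 3 calls were lost without any 1 DMSO library. Under upper-quartile factors CKAP5 (0.0797, edgeR adjusted p = 0.0942) and ASPM (0.0841, 0.126) were not called. KIF20B was at 0.150 with the GC trend removed and at 0.162 without GSK-A1 replicate 2, called in both. ASPM was at 0.0412 with the GC trend removed (adjusted p = 0.307, edgeR).

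Of 15 other genes listed under cytokinesis, the centriole gene PLK4 among them, 5 were called higher and 1 lower. These were 33.3% and 6.67%, against 12.0% and 10.9% of all genes. RHOA, the GTPase that anillin and ECT2 act with, went from 199.5, 202 and 205 CPM to 259, 273 and 253 CPM, which in log2 is 0.369 ± 0.0370 (SE; edgeR adjusted p = 4.75e-06). RHOA also serves actin outside mitosis. PLK4, the kinase of centriole duplication, rose by 0.260 ± 0.0534 (edgeR adjusted p = 0.00257) and SHCBP1, a partner of centralspindlin, by 0.180 ± 0.0453 (0.00943; 0.0506 without DMSO replicate 2).

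Of 18 transcriptional regulators of mitotic genes 3 were called higher, or 16.7%, and 1 lower, or 5.56%, against 12.0% and 10.9% of all genes. FOXM1 lay at 186 to 193 CPM with DMSO and at 178 to 185 CPM with GSK-A1 (log2 fold change -0.0532 ± 0.0353, edgeR adjusted p = 0.3). MYBL2, or B-MYB, lay at 335 to 344 and 351 to 361 CPM (0.0645 ± 0.0327, edgeR adjusted p = 0.168), and it was called higher with the GC trend removed (0.133, 0.00622) and without GSK-A1 replicate 2 (0.0708, 0.0476). Of the MuvB core, LIN9 rose by 0.186 ± 0.0474 (edgeR adjusted p = 0.0104; 0.0556 without DMSO replicate 2 and 0.0559 without 3), while LIN54, its CHR-binding subunit, was at 0.148 ± 0.0561 (0.0673) and was called without GSK-A1 replicate 2 or 3. E2F3 rose by 0.197 ± 0.0367 (edgeR adjusted p = 0.00126), NFYC of the CCAAT-binding NF-Y fell by 0.173 (0.0123; 0.0728 without DMSO replicate 1), and E2F4, of the repressor complex with MuvB, was not called (-0.0544 ± 0.0556, 0.521).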

How the data were processed

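The deposited table holds raw counts per gene for 6 total-RNA libraries of HEK293 cells, whole numbers with no normalization by the authors. Per the submitters' processing notes the tools were cutadapt 5.1, STAR 2.7.11b, featureCounts of Subread 2.1.1 and DESeq2 1.38.0, and the build was GRCh38.p13; annotation, strand setting and filters are not given in the sources used here. Per the labels' protocols the kit was stranded, and all libraries carried the same lane label. Groups were read from the titles. Genes were tested with edgeR 4.0.16 in R 4.3.3 (filterByExpr with a smallest count of 10 and total of 15, TMM factors, robust quasi-likelihood F test, Benjamini-Hochberg over all 16754 genes tested). CPM are counts scaled by TMM-adjusted totals, and a standard error is the log2 coefficient over the square root of F. The common biological coefficient of variation was 4.06%. The p-values rest on the spread between these 3 libraries a group, with each gene's dispersion moderated toward that of all genes.

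Length, GC content, positions and overlaps came from GENCODE 29, GC content being known for 96.1% of genes tested and for every member. POLA2 had 2 identifiers, of which the one with more counts was used. Alternatives were RLE and upper-quartile factors, library totals, 2 other count filters, DESeq2 1.42.0, limma-voom (limma 3.58.1), a replicate block, a loess GC offset (span 0.3), a threshold of 0.01 and fits without each library. The members and lists were chosen with earlier results of these data known. Members called are given by library. Of each sublist of other mitosis genes up to 3 called genes with the smallest p are named, with FOXM1, MYBL2, LIN54 and E2F4 besides.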

Additional observations from a re-analysis of the deposited data

How the results depend on the processing

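At an adjusted p under 0.01 there were 1871 of 16754 genes called. Of the 32 mitosis members 2 were higher and 1 lower, and of 122 other mitosis genes 12 were higher and 2 lower. The split of all genes by direction is not given at this threshold, so nothing is read from these directions. Under upper-quartile factors the members' median was 0.00177, and 19 other mitosis genes were called lower, where 16% of all genes were. In that fit 8 of 34 G1/S and DNA replication genes were called, where 24% of all genes were called. Calls of other mitosis genes lower were 12 with a mean of at least 5 CPM and 15 with the GC trend removed. The shares of all genes called lower in these fits were 15% and 12.2%. The GC fit also gave 10 G1/S calls, where 25.6% of all genes were called. Leaving out 1 library at a time gave 2163 to 4890 genes called, or 12.7% to 28.1% of those tested. Shares of all genes called higher were 6.77% to 15.2%, and shares called lower 5.93% to 12.9%. In the same fits 2 to 7 members were called higher and 0 to 4 lower, with a members' median of 0.0155 to 0.067. Of the other mitosis genes 10 to 29 were called higher and 2 to 14 lower, and 4 to 12 G1/S genes were called. The cause was not tested. The fit with the replicate number as a block gave 8 member calls, the 7 and CKAP2 (0.12, edgeR adjusted p = 0.0465), where 24.6% of all genes were called. Same-numbered libraries deviated together with r of 0.0125, 0.130 and 0.117, and the values of replicates 2 and 3 were the highest of all pairs across the groups. GSK-A1 replicate 1 correlated best with DMSO replicate 3 (0.0836). The titles state no pairing. Whether the numbers pair the samples was left undecided, and the main fit did not use them.

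Signs turned in some genes not called with all 6 libraries. Under upper-quartile factors CCNB2 was at -0.0155, BIRC5 at -0.00961, KIF23 at -0.0384, KIF2C at -0.0344, HMMR at -0.0109, TOP2A at -0.0108 and MKI67 at -0.00214. With library totals only KIF23 was at -0.00536 and KIF2C at -0.00164, and with a mean of at least 5 CPM at -0.0147 and -0.0108. With the GC trend removed CENPE was at -0.0016, KIF23 at -0.0338, HMMR at -0.0571, TOP2A at -0.0358 and E2F4 at 0.00343. KIF11 was at 0.00486 under RLE factors, 0.00644 without a count filter and 0.00498 with DESeq2. Leaving out 1 library gave -0.00976 to 0.057 for CCNB2, -0.0583 to 0.00487 for UBE2C, -0.0895 to 0.00208 for CENPA, -0.0843 to 0.00687 for CENPF, -0.0644 to 0.0471 for KIF11, -0.026 to 0.0447 for KIF23, -0.0236 to 0.266 for NUSAP1, -0.0423 to 0.0749 for HMMR, -0.0316 to 0.071 for TOP2A and -0.0935 to 0.0213 for E2F4.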

Other observations

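Genes of the preceding cell cycle phase were read beside the mitosis genes. Of 34 genes of G1/S and DNA replication, 1 was called higher (2.94%, against 12.0% of all genes) and 4 lower (11.8%, against 10.9%). Lower calls were thus near the background, and the median log2 fold change was -0.0288. The 4 called lower were LIG1, the ligase of Okazaki fragments (-0.322 ± 0.0597, edgeR adjusted p = 0.00248), CCNE1, cyclin E1 (-0.245 ± 0.0509, 0.00276), and the helicase subunits MCM5 (-0.243 ± 0.0433, 0.000897) and MCM2 (-0.192 ± 0.0340, 0.000863). The 1 called higher was MCM10 (0.150 ± 0.0387, edgeR adjusted p = 0.0109). GC content was 52.9% to 58.1% in the 4 called lower and 43.3% in MCM10. Over all genes with a GC content of 48% and over, the median log2 fold change was -0.0544. The part of GC content in these calls was not tested. The mitosis list had 15.6% of its genes called higher and 6.25% called lower in the same fit; the difference between the lists was not tested. These 5 genes were named after their values were seen.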
